A study of Mus musculus with 12 samples.

Results

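Polysome mRNA was compared with total mRNA in mouse neural stem cells grown at 80 μM folic acid, by RNA bisulfite sequencing of 2 polysome samples (pHF) and 2 total samples (HF). These are 4 of the 12 samples of the series, which also holds the same pairs at 1.5 μM (LF, pLF) and 10 μM (MF, pMF). The cells came from the subventricular zone of wild-type male C57BL/6 mice, 6 to 8 weeks of age, and grew on poly-ornithine and laminin with EGF and bFGF for 4 days, with fresh medium on day 2. For pHF, cells received cycloheximide, which holds ribosomes on mRNA, and the sucrose gradient fractions of mRNAs carrying over 3 ribosomes were combined; all groups went through 2 rounds of poly(A) selection. Site levels were compared at cytosines on the study's list for HF or pHF, of which 149 of 182 were covered by 20 or more reads in every sample, and gene levels at 8027 genes with at least 10 cytosines of low level in each sample. The labels call the samples biological duplicates, and with 2 against 2 an exact permutation test of a single value cannot give a p below 0.33.

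An mRNA that carries several ribosomes at once is called a polysome and is being translated, so polysome mRNA over total mRNA describes how much of an mRNA is engaged by ribosomes. The modified base m5C is set in mRNA mainly by Nsun2, which favours cytosines followed by G-rich sequence, and by Nsun6, which favours cytosines in a CTCCA context. Bisulfite turns unmodified cytosine into uracil, read as T, whereas m5C stays C, and the level of a site is the share of its reads that stayed C. Folate supplies the methyl groups that such enzymes transfer.

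The HF files stood apart from the other total samples. Gene levels were correlated across 850 genes with at least 10 cytosines of low level shared by all 12 files. Those of LF and MF correlated at r = 0.981 to 0.993. Those of HF correlated with LF or MF at 0.643 to 0.717, although HF replicates 1 and 2 correlated at 0.993. Of the positions that the study listed for HF replicates 1 and 2, 6 of 93 and 7 of 88 were absent from the HF files, against 0 in each of the other 10 files. At 41 and 44 of them the coverage in the HF files was lower than in that list, again against 0 in each of the other files. The HF files were used under the label they carry, and whether they hold another sample was not tested. pHF replicate 2 listed 38353 cytosines with a level above 90%, against 2367 in pHF replicate 1 and 1132 and 1102 in HF. It also listed the fewest cytosines, 779105, against 1226856 in pHF replicate 1 and 2043837 and 1778693 in HF. Among the neural stem cell markers, Nes, Vim, Fabp7, Hes5, Pax6, Msi1, Sox9 and Olig2 had cytosines in all 4 files. Sox2 overlaps another gene and had no cytosine of its own, and the neuronal markers Rbfox3, Syt1 and Snap25 had none in the 4 files. The neuronal marker Tubb3 had between 48 and 198 cytosines a file, and Dcx had 6 and 4 in HF and 0 in pHF. The astrocyte marker Aldh1l1, the microglial marker Cx3cr1 and the pericyte markers Pdgfrb and Acta2 also had cytosines in all 4 files, whereas Mog, Aif1, Csf1r, P2ry12, Cldn5, Cdh5 and Dcn had none.

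The site results are easiest to follow from the sequences around the cytosine. The sequences below were read from the mm10 genome on the strand of the mRNA, 5′ to 3′, and the capital marks the cytosine measured. The first 3 were among the sites with the largest rises in pHF, and the last 3 were lower in pHF.
Trim41: gcacggagaaCagggcgctgc
Rela: ggtgctttcgCaggagcatta
Cotl1: ctctggtagaCactgcttggc
Cox6b2: gcagatcaagCagggaacttt
Nid2: ttcccgctgtCggggtccagc
Rpl23: ctgtgatcaaCtgtgcagaca

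Levels at listed sites were higher in pHF. The mean over the 149 sites, of which 6 had no assigned gene, was 15.8% and 15.1% in HF replicates 1 and 2 and 22.7% and 22.3% in pHF replicates 1 and 2. Both pHF values lay above both HF values, by 7.04 percentage points on average (two-sided exact permutation p = 0.33, the smallest that 4 samples allow). By Fisher's exact test on the summed reads of both replicates, adjusted by Benjamini-Hochberg, 91 sites were higher in pHF (61.1% of those tested) and 7 lower (4.7%). Pooling leaves out the spread between replicates. A beta-binomial test with 1 estimate of that spread shared by all sites, not each site's own, called 72 higher and 3 lower. Limma on the log odds, which uses each site's own spread moderated across sites, called 41 higher and 2 lower. The pHF levels did not overlap the HF levels at 100 sites in the higher direction and 15 in the lower.

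The list itself leans one way, because 102 of the 149 sites were listed for pHF and not for HF, and the study chose it by level in samples of these labels; the counts are therefore not independent evidence of the direction. Sites listed for LF or MF were not chosen on HF or pHF: 59 had enough coverage, and their mean level was 23.9% and 22.4% in HF and 30.7% and 30.0% in pHF. Of these, 31 were higher in pHF (52.5%) and 2 lower by Fisher's test, and 23 and 1 by the beta-binomial test. Among cytosines chosen by 10% or more and 6 or more unconverted reads in both HF files or both pHF files, 217 were higher and 207 lower of 649. Of the 232 that passed in HF alone 198 were lower, and of the 187 that passed in pHF alone 174 were higher, so the direction there followed the group used for the choice. The 230 that passed in both held 43 higher and 9 lower. Among the 329 of the 649 with no other such position within 25 bases, 98 were higher and 170 lower. With the adjustment over all 649, the choice showed here too. Of the 179 isolated positions that passed in HF alone 163 were lower, and of the 78 that passed in pHF alone 65 were higher. The 72 that passed in both held 30 higher and 7 lower.

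**Figure D1:**
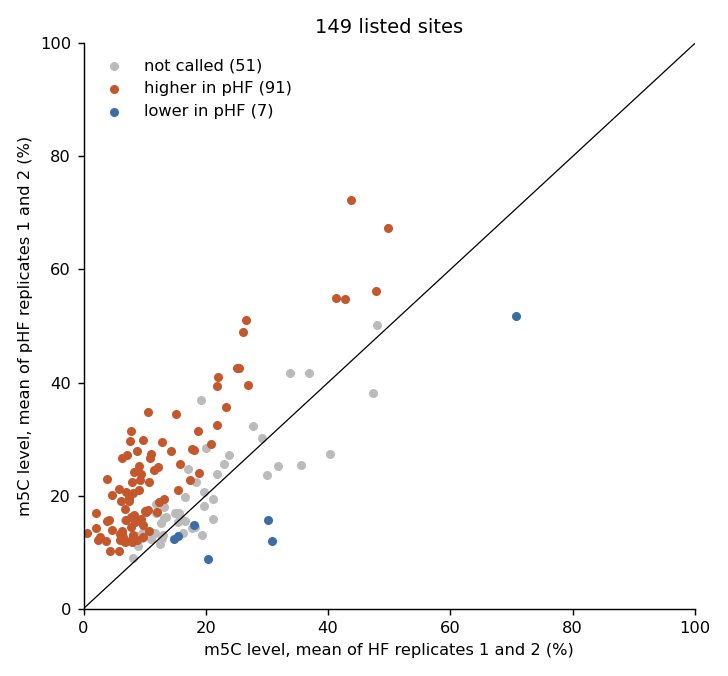
Level of each of the 149 listed sites in HF (x axis, mean of 2 replicates, %) against pHF (y axis, mean of 2 replicates, %), coloured by the call of Fisher's exact test on summed reads. The line marks equal levels, and 126 sites lie above it.

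The site in Trim41, which encodes a ubiquitin ligase, lay in the 5′ UTR at chromosome 11 position 48817281 on the minus strand. Its level was 45% and 42.4% in HF and 65.4% and 79.2% in pHF, from 52 and 53 reads in pHF. Both pHF values were above both HF values (Fisher's exact test, adjusted p = 5.38e-06). In the 3′ UTR of Rela, the NF-kappaB subunit p65, the cytosine at chromosome 19 position 5647583 on the plus strand stood at 25.4% and 26.8% in HF and 52.9% and 45.1% in pHF, from at least 660 reads a sample. Cotl1, an actin-binding protein, had a 3′ UTR site at chromosome 8 position 119809704 on the minus strand with 7.77% and 6.38% in HF and 30.9% and 23.5% in pHF. At these sites the HF replicates lay close together and the pHF replicates farther apart.

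These and the other large rises named were chosen among called sites whose groups did not overlap, so the lack of overlap is not a result. Wdr48, a cofactor of deubiquitinases, went from 10.3% and 10.8% to 35.5% and 34.2%. The sorting receptor mRNA Sorcs2 went from 6.99% and 8.61% to 32.5% and 30.4%, and Klhl26 from 30.4% and 22.7% to 48.7% and 53.5%. Mfsd10, a membrane transporter, went from 6.05% and 6.59% to 28.1% and 25%, and Ccdc107 from 12.7% and 17.6% to 34.8% and 34.0%. Fam219a had the widest spread in pHF, 39.2% and 20.5%, above 8.02% and 11.3% in HF. Pgm2, an enzyme of pentose and hexose phosphate metabolism, stood at 8.25% and 6.86% in HF and 34.0% and 25.4% in pHF, the first from 47 reads. Both 3′ UTR sites of the Golgi glycoprotein mRNA Glg1 were also called: 27.5% and 26.4% against 41.6% and 37.7% at one, and 12.9% and 11.9% against 20.3% and 17.5% at the other. In Hdgf the listed site was not called (16.5% and 16.1% in HF, 11.98% and 14.7% in pHF), and Dgcr2 had no site among the 149.

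Of the 7 lower sites, 3 also passed the beta-binomial test. Cox6b2, a cytochrome c oxidase subunit, fell at a 3′ UTR cytosine from 32.2% and 29.5% to 11.3% and 12.8%. Cul5, the scaffold of a ubiquitin ligase, fell from 31.3% and 28.9% to 11.3% and 20.2%. Nid2, a basement membrane protein, stood at 68.7% and 72.8% in HF and 52.4% and 51.1% in pHF, where its coverage was 21 and 45 reads. The other 4 passed Fisher's test but not the beta-binomial test. Rpl23, a ribosomal protein, differed by -2.62 percentage points from 7262 or more reads a sample, and its beta-binomial adjusted p was 0.391. The gene model Gm9794 has the same 21 bases around its site, so reads may be shared between the pair. Use1, a SNARE of the secretory pathway, stood at 18.99% and 17.1% against 14.5% and 14.9%. Farp2 stood at 29.6% and 11.1% in HF and 8.70% and 8.77% in pHF, on 23 to 57 reads.

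**Figure D2:**
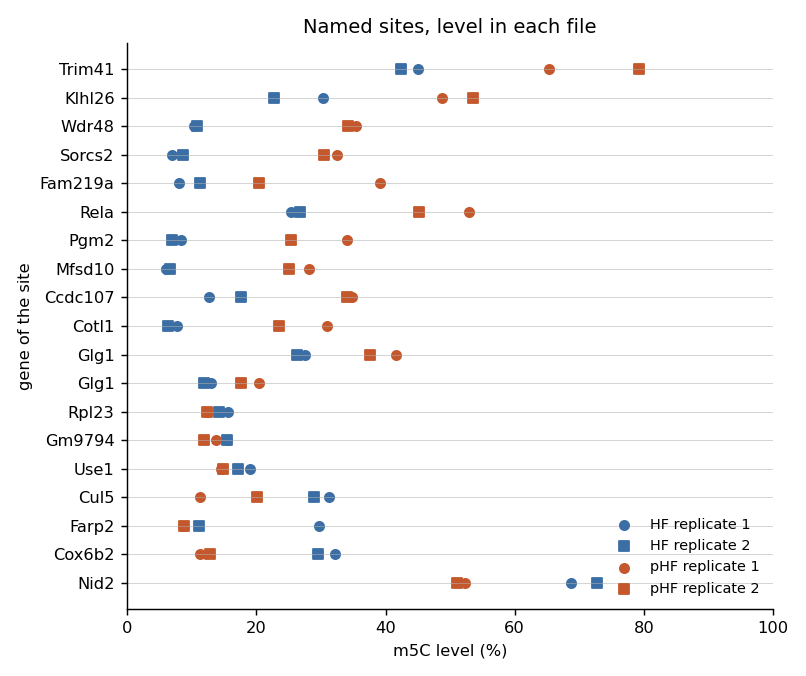
Level (x axis, %) of each named site that was called (rows, by gene), with HF in blue and pHF in orange, circles for replicate 1 and squares for replicate 2. Trim41 has the largest rise and Nid2 and Cox6b2 the largest falls, and the replicates of Trim41, Fam219a and Farp2 lie far apart.

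Sites were grouped by what followed the cytosine, and each count stands beside 61.1% higher and 4.7% lower over all 149 sites. At least 3 G in the 4 bases after it (G-rich) held for 60 sites, 40.3% of the listed sites and 5.82% of the 169640 cytosines covered by 20 or more reads in every file. Of these 30 were higher and 4 lower, with means of 20.0% and 18.04% in HF and 25.1% and 24.4% in pHF. The CTCCA context held for 9 sites, 6.04% against 0.799% of the cytosines. Of these 8 were higher and 0 lower, and their mean went from 16.7% and 16.6% to 28.3% and 27.5%. The other 80 sites held 53 higher and 3 lower. By region, 49 of 74 coding sites were higher and 5 lower, 27 of 46 3′ UTR sites were higher and 1 lower, and 7 of 11 5′ UTR sites were higher and 0 lower. Differences between these classes were not tested.

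Unconverted reads were also counted at background positions. At 167219 cytosines with a level under 5% in all 4 files, the unconverted share of reads was 0.123% and 0.122% in HF and 0.120% and 0.0876% in pHF. Each such position had to hold at least 1 unconverted read in every file, so this share falls with depth. It therefore cannot show whether conversion was equal between the groups. Of 37 higher sites in genes tested on shared cytosines (defined with the gene results), 9 lay in genes higher in pHF, 12 in genes lower in pHF and 16 in genes not called, beside 36.0% higher and 34.3% lower over all genes tested there.

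The same sites were higher in polysome mRNA at the other doses, which share no samples with this comparison. They were still sites listed for HF or pHF, 102 of the 149 for pHF alone. The study also reports that its polysome lists overlap between the doses. The counts at the other doses therefore lean the same way and are not independent evidence of the direction. Means went from 11.5% and 11.7% in LF to 18.6% and 20.5% in pLF over 136 sites, of which 100 were higher and 0 lower by Fisher's test. In MF they went from 11.4% and 10.7% to 19.8% and 19.8% over 137 sites, of which 97 were higher and 0 lower. The 7 sites that were lower at high folate had a positive difference in pMF minus MF, except Nid2, which was not measured there. In pLF minus LF the difference was positive at 6 of the 7 and negative at Farp2, by -5.04 percentage points. A limma interaction test over 12 files used the 160 of the 253 sites listed for any group with at least 20 reads in each file, and 0 of them (0.0%) had a pHF minus HF difference that departed from those of LF and MF. At an unadjusted p under 0.05 there were 34, of which 27 were smaller at high folate. In total mRNA, 27 of these 160 sites were higher and 2 lower in HF than in LF and MF, whereas pHF was higher than pLF and pMF at 2 and lower at 0.

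Gene counts depended on which cytosines were read and how their coverage was summarised. A gene's level was the median coverage of its cytosines with a level under 5%, divided by the file's median gene. The files list a cytosine only where at least 1 read stayed C, so the listed positions differ between files. Over all listed positions, limma called 0 of 8027 genes (0.0%), with a lowest adjusted p of 0.0857, and 1054 genes higher and 912 lower at an unadjusted p under 0.05. With the mean in place of the median coverage, limma called 1773 higher and 1489 lower at the same positions, and without HF replicate 1 or HF replicate 2 it called 258 and 133 or 283 and 162. HF replicates correlated at 0.800 across genes and pHF replicates at 0.854 in this measure. When each gene was read at the same positions, those listed in all 4 files, replicates correlated at 0.990 and 0.960, and 2364 genes had at least 10 such cytosines. There 852 genes were higher in pHF (36.0%) and 811 lower (34.3%), and the groups overlapped in 0 of the 1663. This split rests on centring each file on its median gene: scaling to summed coverage gave 1362 higher and 362 lower. Of the 1663 called with centring, 1337 had the same direction over all listed positions, 477 of them at an unadjusted p under 0.05. Coverage also differed along single genes: the interquartile range of the log2 ratio between cytosines of a gene had a median of 1.09 for pHF over HF, 0.14 between HF replicates and 0.31 between pHF replicates. The gene results that follow are those on shared cytosines, and values are log2 differences of relative levels, pHF minus HF, with limma adjusted p-values.

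Among genes higher in pHF, Ctsh, a lysosomal protease, had the largest difference on shared cytosines of those with at least 50 listed cytosines in each file. Its relative level was 0.0317 and 0.0339 in HF and 0.678 and 0.727 in pHF, 21.4-fold higher (log2 4.42 ± 0.13 SE, adjusted p = 4.44e-06, 13 cytosines). Ppp1r15a, which directs dephosphorylation of eIF2alpha, stood at 0.211 and 0.214 in HF and 3.58 and 3.15 in pHF (log2 3.98 ± 0.13, adjusted p = 6.08e-06). The ribosomal protein mRNA Rpl9 stood at 0.139 and 0.142 against 2.19 and 3.39 (log2 4.28 ± 0.20, adjusted p = 9.46e-06). Thyn1 differed by 3.48 and Rpl41, another ribosomal protein mRNA, by 2.91. The proteasome subunit mRNAs Psmd14 and Psma6 differed by 3.06 and 2.89, Vapa, an endoplasmic reticulum tether, by 2.94, the inositol transporter mRNA Slc5a3 by 2.90, and Hnrnpa1, a splicing regulator, by 2.88. Both HF replicates lay below both pHF replicates for each of these 10, as the naming required and as held for every called gene. The size of these differences varied with the measure. Ctsh stood at 2.38 over all listed positions and 1.88 with mean coverage of those positions, and Rpl9 at 4.11 and 5.05. Over all listed positions the 10 ranged from 1.56 to 4.11, with Rpl9 the highest, and with mean coverage of those positions from 1.50 to 5.05. The median ratio of single cytosines was 3.57 for Ctsh, 3.28 for Ppp1r15a, 2.97 for Thyn1, 0.67 for Slc5a3, 1.37 for Psma6 and 1.68 for Psmd14. Rpl9, Rpl41 and Hnrnpa1 have near-identical pseudogene copies, and how reads were divided among them is uncertain.

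Among genes lower in pHF, Sema5a, an axon guidance protein, stood at 1.44 and 1.59 in HF and 0.147 and 0.157 in pHF (log2 -3.32 ± 0.13 SE, adjusted p = 9.46e-06). The membrane protease mRNA Adam10 stood at 1.66 and 1.74 against 0.249 and 0.212 (log2 -2.89). Cdkn2c, a cell cycle inhibitor, stood at 3.29 and 2.76 against 0.479 and 0.440 (log2 -2.71). Wdr6 differed by -3.08, Sh3pxd2b, a podosome adaptor, by -2.92, Ehd2, a membrane trafficking ATPase, by -2.84, the kinase mRNA Stk25 by -2.83, the phosphatase mRNA Mtmr2 by -2.82 and the ubiquitin ligase mRNA Kcmf1 by -2.76. Nnat, a membrane proteolipid of developing brain, stood at 16.4 and 13.8 in HF and 1.85 and 1.55 in pHF (log2 -3.15), but its difference over all listed positions was 0.77, in the opposite direction. The other 9 ranged from -2.09 to -0.33 over all listed positions, with Stk25 the nearest to 0, and the 10 from -2.42 to -0.85 with mean coverage of those positions.

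**Figure D3:**
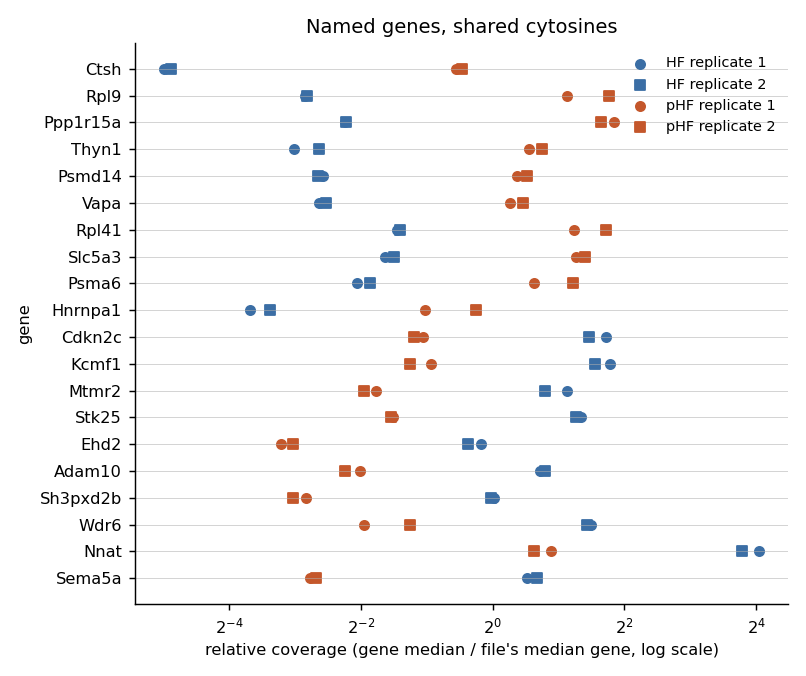
Relative level (x axis, gene's median coverage divided by the file's median gene, log scale) of the 10 genes with the highest and the 10 with the lowest difference among called genes with at least 50 listed cytosines in each file, with HF in blue and pHF in orange, circles for replicate 1 and squares for replicate 2. In each row both pHF points lie on one side of both HF points, as the choice of genes required.

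Lists of genes by function were read against all 2364 genes, of which 36.0% were higher and 34.3% lower and whose median difference was 0.04. The ATF4 stress response list, genes switched on in a cell stress response, held 17 higher and 4 lower of 23 tested, with a median of 1.00. Its largest members were Ppp1r15a (above), Gadd45a, which stood at 0.496 and 0.478 in HF and 4.63 and 3.30 in pHF, and Trib3 and Ddit3, at 2.81 and 2.80 on the log2 scale. The list's medians at the other doses were 1.93 in pLF minus LF and 1.68 in pMF minus MF. They rest on 15 and 17 of the 23 members, so these medians and the 1.00 cover different genes. Aminoacyl-tRNA synthetases, which charge tRNAs, held 14 higher and 2 lower of 20, median 0.81, with Rars at 1.94 and Gars at 1.68. Qars was lower, at -2.61, but 0.20 over all listed positions.

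Proteasome subunits held 22 higher and 6 lower of 33, median 0.79, led by Psmd14, Psma6, Psmb2 (2.86) and Psma3 (2.68). Their medians were 0.26 and 0.21 at the low and medium dose. The nuclear-encoded respiratory chain held 38 higher and 12 lower of 61, median 0.69, with Cox7c at 2.47, Ndufs5 at 2.36 and Ndufb9 at 2.11. Atp5g2, an ATP synthase subunit, was lower at -2.20, but stood at 0.37 over all listed positions. Mitochondrial ribosomal proteins held 16 higher and 5 lower of 27, median 0.56, with Mrps14 at 2.14. Endoplasmic reticulum chaperones held 9 higher and 2 lower of 17, median 0.61. Sec61b, part of the translocon, stood at 2.38, Pdia6, a disulfide isomerase, at 1.36, and Serpinh1, the collagen chaperone, at 1.34. Manf stood at 8.82 and 6.94 in HF and 1.95 and 1.91 in pHF (log2 -2.02), but its difference over all listed positions was 0.42.

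Cytosolic ribosomal proteins held 27 higher and 17 lower of 62, median 0.18, with Rpl34 at 3.39 and Rpl38 at 3.37. Translation factors held 15 higher and 10 lower of 37, median 0.02, with Eif2s2 at 2.12. Splicing factors held 17 and 14 of 40, median 0.12, with Hnrnpa3 at 1.52 and Srsf2 at -1.72. Over all listed positions, where the median of all genes was also 0.04, their medians were 0.53, 0.36 and 0.55 over 71, 38 and 52 genes. On shared cytosines their medians at low and medium dose were below 0: -0.28 and -0.28 for ribosomal proteins, -0.40 and -0.30 for translation factors and -0.80 and -0.71 for splicing factors.

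Some lists held more lower than higher members. Extracellular matrix and basement membrane genes held 6 higher and 11 lower of 19, median -0.49, with the collagens Col4a1 at -1.79 and Col4a5 at -1.56, the collagen Col6a1 at 1.50 and Sparc at 1.62. Neural stem cell identity genes held 3 higher and 6 lower of 14, median -0.25. The Notch receptors Notch2 and Notch1 stood at -1.64 and -1.42, whereas Fabp7, a fatty acid carrier of neural progenitors, stood at 1.71 and 1.86 in HF and 7.29 and 7.09 in pHF (log2 2.01), and at -0.26 and -0.45 at the other doses. DNA replication and cell cycle genes held 4 higher and 8 lower of 20, median -0.25, with Pcna at 1.63 and Bub1b at -1.63. Over all listed positions this list turned, with a median of 0.17 over 43 genes. Immediate early genes held 1 higher, Jun at 1.15, and 3 lower of 5. The 3 lower members turned under an alternative: Mcl1 (0.41) and Ier5 (0.12) over all listed positions, and Ier5 (0.020) and Btg2 (0.043) with scaling to summed coverage.

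The folate cycle list held 3 higher and 2 lower of 8, median 0.01. The mitochondrial enzymes Mthfd2 and Shmt2 stood at 1.07 and 0.85, and Gart, of purine synthesis, at -1.06. The methionine cycle and polyamine list held 0 higher and 2 lower of 7, median 0.07, with Oaz2 at -1.02 and Ahcyl1 at -0.63 (0.11 on the cytosines shared by the 3 files without pHF replicate 2). Over all listed positions its median was 0.58 over 20 genes, with 4 higher and 0 lower at an unadjusted p under 0.05. Among m5C writers, erasers and readers, the writer Nsun2 was higher, with 0.703 and 0.706 in HF and 1.43 and 1.40 in pHF (log2 1.01), and Srsf2, Ybx1 (-0.53) and Ybx3 (-0.47) were lower, of 5 tested. Ybx1 and Ybx3 stood at 0.071 and 0.12 with scaling to summed coverage. The mitochondrially encoded mRNAs, which are translated inside mitochondria, held 0 higher and 2 lower of 3: mt-Cytb stood at 6.62 and 5.77 in HF and 0.0682 and 0.0160 in pHF, mt-Co1 at 2.45 and 2.37 against 0.592 and 0.361, and mt-Nd6 was not called (-0.06). Mitochondrial chromosome coverage made up 0.153% and 0.154% of HF and 0.0444% and 0.0319% of pHF.

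Lists of other cell types had few members tested. Fibroblast and pericyte genes held 0 higher and 2 lower of 3, Acta2 at -1.50 and Col1a2 at -1.05. Acta2 stood at 0.074 on the cytosines shared by the 3 files without pHF replicate 2. Neuronal differentiation genes held 0 higher and 2 lower of 3, with Ncam1 at -2.00 (0.43 over all listed positions), and astrocyte and oligodendrocyte genes 2 higher and 1 lower of 3, with Aldoc at 0.74 (-0.61 with mean coverage of the shared cytosines). Microglia and endothelial lists had 0 genes tested. In bulk samples fewer cells of a type and less RNA per cell cannot be told apart. Long noncoding RNAs held 1 gene, Sox2ot, lower at -0.59 (0.95 over all listed positions), snoRNA host RNAs 1 higher of 2, Gas5 at 1.16, and integrins 0 called of 3.

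**Figure D4:**
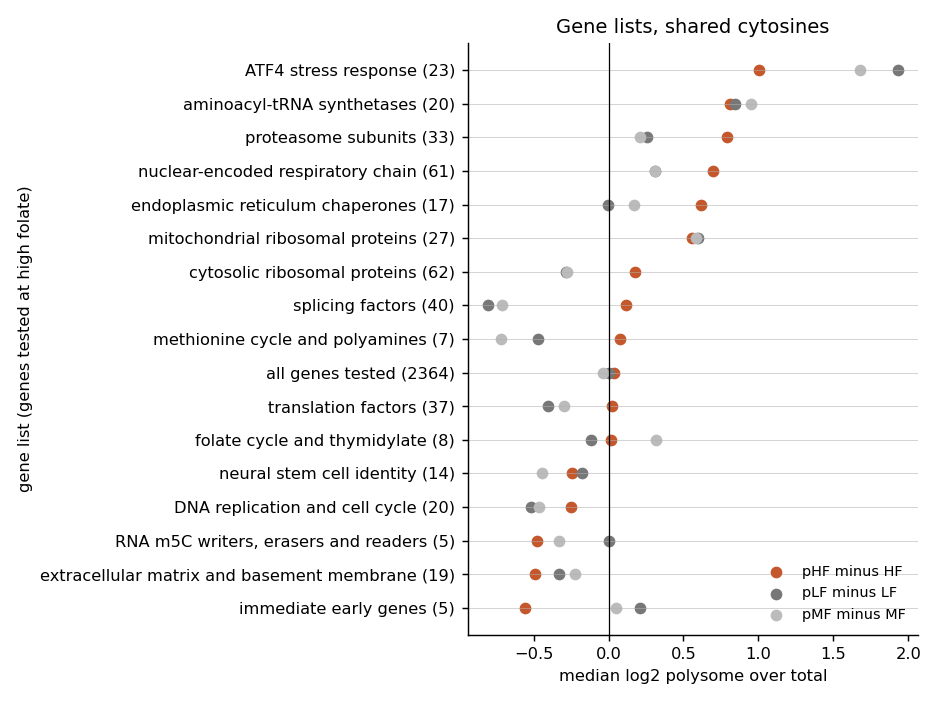
Median log2 difference of polysome minus total mRNA (x axis) for each gene list with at least 5 genes tested (rows, with the number tested at high folate) at high folate in orange, low folate in dark grey and medium folate in light grey. Several lists had fewer members measured at the other doses, as the ATF4 list with 15 at low and 17 at medium folate. The ATF4 list has the highest median at each dose, and the splicing and cytosolic ribosomal protein lists lie above the median of all genes at high folate and below it at the other doses.

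Differences varied with coding length. Coding genes were put in 4 groups of near-equal size by coding length, read beside 36.0% higher and 34.3% lower over all 2364 genes. In the longest group (1920 to 15540 bases) 122 of 576 were higher and 276 lower, with a median of -0.34. The shortest group (138 to 699 bases) held 253 of 576 higher and 166 lower, with a median of 0.20. The groups between held 240 higher and 166 lower of 576, and 206 higher and 188 lower of 574. The medians of the longest group were -0.35 in pLF minus LF and -0.26 in pMF minus MF. Within genes, 3′ UTR coverage over coding coverage had a median log2 of -1.02 and -0.97 in HF and -0.71 and -0.32 in pHF over 1971 genes. Positions assigned to 1 gene but outside its annotated exons on the same strand are called intronic here. They made up 2.99% and 2.99% of listed cytosines of 1 gene in HF and 0.758% and 1.91% in pHF (exact permutation p = 0.33). In pLF and pMF the share was 0.705% to 0.847%, so pHF replicate 2 stood above every other polysome file. By summed coverage the shares were 0.512% and 0.510% against 0.392% and 0.413%.

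The other doses, which share no samples with this comparison, were set beside the gene results. Of 1974 genes tested at all 3 doses, 721 were higher at high folate; 420 of these had the same direction at both other doses and 268 were called higher at all 3, whereas 86 were called lower at both others. Of the 655 lower genes, 386 had the same direction at both other doses and 245 were called lower at all 3, and 70 were called higher at both others. Across these genes the differences at low and medium dose correlated at 0.79, and those at high dose with them at 0.38 and 0.40, a description across genes, which are not independent.

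**Figure D5:**
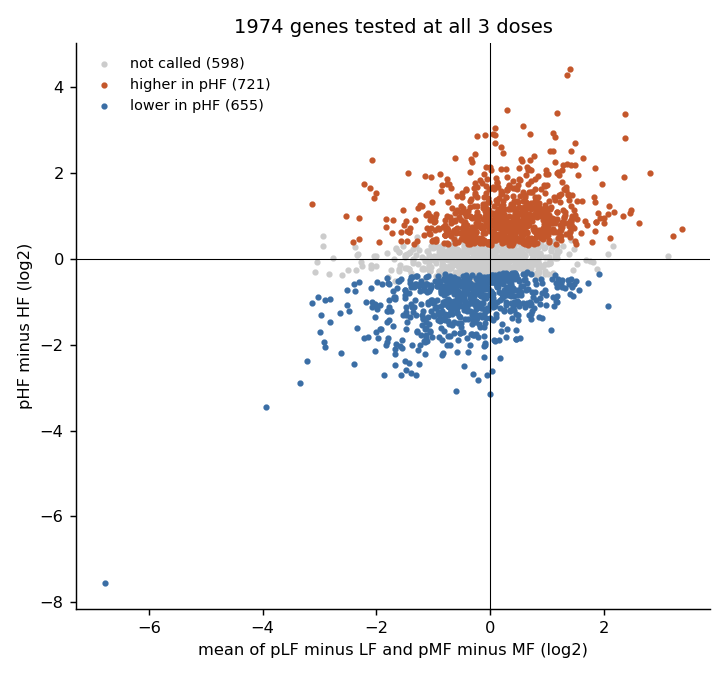
Log2 difference of pHF minus HF (y axis) against the mean of pLF minus LF and pMF minus MF (x axis) for the 1974 genes tested at all 3 doses, coloured by the call at high folate. Many called genes lie on the same side of 0 on both axes, and a share lies on opposite sides.

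The departure from the other doses was tested with a limma interaction over 12 files. It called 215 of 7135 genes (3.01%) over all listed positions, 79 with a larger and 136 with a smaller difference at high folate. On cytosines shared by all 12 files it called 558 of 850 (65.6%), 332 larger and 226 smaller. More genes differed between the total samples than between the polysome samples. On those cytosines 254 genes were higher and 354 lower in HF than in LF and MF, whereas 53 were higher and 19 lower in pHF than in pLF and pMF. Over all listed positions, the relative level of Asns, asparagine synthetase, which had too few shared cytosines to be among the 850, was 5.90 and 4.95 in HF and between 0.101 and 0.308 in LF and MF, against 3.59 and 7.18 in pHF and between 1.29 and 3.05 in pLF and pMF. From RNA-seq of total mRNA, the paper reported only subtle effects of low and high folate on mRNA abundance. An effect of the folate dose and the identity of the HF files cannot be told apart here.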

How the data were processed

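RNA bisulfite reads of 12 samples were processed by the authors: trimmed with fastp v0.20, aligned uniquely to mm10 with meRanGh and called with meRanCall. The deposited counts are the coverage and unconverted reads of each cytosine, with at least 10 reads and 1 unconverted read, before the authors' 3C, signal/noise and structure filters. The deposited level is a fraction, unconverted over unconverted plus converted reads. Variant bases were left out. Reads carried no molecular identifiers, so tests on reads cover counting error only.

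Positions of the study's site list were tested by Fisher's exact test on pooled reads, a beta-binomial likelihood ratio test and limma 3.58.1 (R 4.3.3) on log odds with a pseudocount of 0.5, with Benjamini-Hochberg adjustment at 0.05. The beta-binomial test used 1 replicate spread estimated over all sites tested. Gene levels were log2 median coverage, centred on each file's median gene, and fitted with limma. Python 3.11.15 and scipy 1.17.1 were used, and the tests were checked on simulated data. Summed coverage was between 1320667483 and 2421926354 in HF and pHF. Genes were named as the 10 highest and 10 lowest called, with at least 50 cytosines a file and groups that did not overlap, and 4 called members per list. Sites were named as the 10 largest differences among called sites whose groups did not overlap, every lower site, and sites in Hdgf, Glg1 and Dgcr2. The rule for genes found 0 genes over all listed positions and was applied to shared cytosines after their values were seen. The members and the 25 lists were chosen with earlier results of these data known. Alternatives changed coverage minimums, site sets, scaling and blocks, and left out each replicate.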

Additional observations from a re-analysis of the deposited data

Results flagged for a closer look

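The difference between polysome and total mRNA departed from that at the other doses in 215 genes by the limma interaction over 12 files. The values below are (pHF minus HF) minus the mean of (pLF minus LF) and (pMF minus MF), on the log2 scale over all listed positions. The 5 largest were Scg3, a secretory granule protein, at 4.51, Pcmt1, a protein repair methyltransferase, at 4.35, Erlin1 at 3.84, the ATP synthase subunit Atp5c1 at 3.83 and the nucleoside kinase Dck at 3.77. The 5 smallest were the transcription factor Tcf7l2 at -3.72, Asns at -3.67, the telomere protein Ten1 at -3.52, Crcp at -3.45 and Ankrd13c at -3.37. In Tcf7l2 the HF files stood at 6.46 and 5.91, and the other total files between 0.406 and 1.22. In Scg3 the HF files stood at 0.245 and 0.446, and the other total files between 0.744 and 1.46. Atp5c1 was also tested on cytosines shared by 12 files, where its value was 0.85. Without HF replicate 2 or without pHF replicate 2, 0 genes were called.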

How the results depend on the processing

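The rise of site levels kept its direction under every alternative run that kept or replaced the site list, except where cytosines were chosen by their level in HF or pHF. Sites higher in pHF numbered 41 by limma on log odds, and sites lower 2. With sites listed for LF or MF there were 31 higher and 2 lower (beta-binomial 23 and 1), and for pLF or pMF 41 and 1 by the beta-binomial test. Sites lower numbered 3 by the beta-binomial test and 4 at a coverage of at least 100. The filter on level called 217 higher and 207 lower, and 98 and 170 among isolated positions. The same filter in LF or MF, added after seeing the data, called 143 higher and 3 lower, and 31 and 2 among isolated positions. Leaving out each replicate gave 78 to 88 higher and 5 to 9 lower, and among sites of LF or MF 28, 29, 30 and 31 higher and 0 to 2 lower. The mean difference was 7.55 points at a coverage of at least 50, 6.21 over sites of pLF or pMF, 6.59 as a median, and 6.66 to 7.41 without each replicate.

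Gene counts depended on the processing. From 0 over all listed positions, they became 852 higher and 811 lower on shared cytosines, 1773 and 1489 with mean coverage, 194 and 148 with a level under 0.02, and 93 and 44 with eBayes trend. Leaving out each replicate gave 0 to 283 higher and 0 to 162 lower: 258 and 133 without HF replicate 1, 283 and 162 without HF replicate 2, 0 without either pHF replicate. The cause was not tested. On shared cytosines (alternatives added after seeing the data) at least 50 cytosines left 922 genes with 329 and 309 called, scaling to summed coverage gave 1362 and 362, and cytosines shared by 3 files gave 1493 and 1311 without pHF replicate 1, 1644 and 1444 without pHF replicate 2, and at least 831 and 752 without an HF replicate. Leaving out each replicate gave 657 to 968 and 605 to 926. Lists of at least 5 genes with a median above that of all genes numbered 14 of 22, 9 of 16 on shared cytosines, and 12 to 15 without each replicate.

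The interaction called 558 genes on shared cytosines, and 0 to 297 of 7135 without each replicate: 15 without HF replicate 1, 0 without HF replicate 2 or pHF replicate 2. On shared cytosines it called 465 to 555 without each replicate. At sites it called 0 to 3: 1 without HF replicate 2 and 3 without pHF replicate 1. The intronic share differed by -1.65 percentage points, -0.11 by summed coverage, -0.40 at a coverage of at least 100, and -2.23 to -1.08 without each replicate.

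Numbers 1 and 2 were not shown to pair the samples: deviations of HF replicate 1 and pHF replicate 1 correlated at 0.0242 over genes. With the replicate number as a block, Fisher's counts became 93 and 7 (Cochran-Mantel-Haenszel), genes 0 and 0, genes on shared cytosines 872 and 838, interaction genes 137 (556 on shared cytosines) and interaction sites 0.

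Of the named genes, differences turned over all listed positions in Nnat (0.77), Atp5g2 (0.37), Sox2ot (0.95), Manf (0.42), Qars (0.20), Ncam1 (0.43), Sf1 (0.28), Ccna2 (0.62), Cdk1 (-0.28), Mcl1 (0.41) and Ier5 (0.12). Scaling to summed coverage turned Sox2ot (0.005), Ybx1 (0.071), Ybx3 (0.12), Sox11 (0.10), Gja1 (0.19), Ier5 (0.020) and Btg2 (0.043), and mean coverage of the shared cytosines Sox11 (0.0061) and Aldoc (-0.61). Mean coverage of all listed positions turned Sox2ot (0.40), Sox11 (0.40), Ccna2 (0.30), Gja1 (0.089) and Aldoc (-0.099). Cytosines shared by 3 files turned Mrps16 (-0.034) and Sox11 (0.47) without HF replicate 1, Ybx3 (0.53) and Sox11 (0.31) without HF replicate 2, Gja1 (0.37) without pHF replicate 1, and Atp5g2 (0.47), Manf (0.25), Ahcyl1 (0.11), Acta2 (0.074) and Cdk1 (-0.79) without pHF replicate 2. No named site turned. At the lowest coverage tested, 20 reads, 1 read moves a level by 5 percentage points.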
